A study of Mus musculus with 8 samples.

Results

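The 10 genes described here belong to the surroundings of the transcription factor p53 and were chosen by the KO minus WT difference of the first pair, the long noncoding RNA Lncpint and the deubiquitinase gene Usp28, which stood far higher in knockout than in wild-type cells of these arrays. The other 8 are Trp53, which encodes p53 itself, and 7 of its textbook targets, Mdm2, Cdkn1a, Sesn1, Ccng1, Zmat3, Trp53inp1 and Phlda3. Members were found by matching probe sets annotated with exactly 1 gene symbol, and 9 of the 10 had one, out of 22180 genes with such a probe set. All 9 entered the test, for which 11585 of those genes were bright enough, and the level of Trp53 was not analysed here. RNA came from CD4 single-positive thymocytes, the T cells of the thymus that have kept CD4 and lost CD8, sorted from the thymus of C57BL/6 mice. The 8 arrays are 4 of wild type (WT) and 4 of the genotype labelled Pggt1b_KO (KO). Pggt1b encodes the catalytic subunit of geranylgeranyl transferase I, which attaches a lipid of the mevalonate pathway to small GTPases. The sources used here do not give the way the gene was inactivated, the cells in which this was done or the age of the mice. The labels do not tie the replicates to separate mice either, and the p-values therefore cover the spread between these samples, which may be technical.

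p53 is held at a low level in unstressed cells by the ubiquitin ligase MDM2, whose own gene is a p53 target, and it accumulates when DNA is damaged or mitosis is delayed. It then switches on genes that stop the cell cycle, kill the cell, repair DNA or limit metabolic stress. In the thymus p53 is best known for removing lymphocyte precursors with unrepaired DNA breaks. Lncpint was described in mouse cells as a p53-induced long noncoding RNA that binds Polycomb repressive complex 2 (PRC2). USP28 removes ubiquitin from proteins such as MYC and JUN, and in human cell lines it acts with the protein 53BP1 to stabilise p53 after a prolonged mitosis.

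The promoter sequences of the members are shown for what they hold of the letters that p53 binds. RefSeq windows of build GRCm38.p6, from 250 bases before to 50 bases after an annotated start, were available for 8 of the 10 genes, with 10 windows in all because Cdkn1a and Sesn1 have a second start. Each window was searched for exact matches to the p53 decamer, the repeated unit of the p53 response element, which reads the same on both strands, so that a single search covers both. In the 6 windows printed, all 5′ to 3′ along the gene's own strand, capitals mark such a decamer, and the first pair holds none.

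Lncpint, chr6:31218425-31218724, minus strand: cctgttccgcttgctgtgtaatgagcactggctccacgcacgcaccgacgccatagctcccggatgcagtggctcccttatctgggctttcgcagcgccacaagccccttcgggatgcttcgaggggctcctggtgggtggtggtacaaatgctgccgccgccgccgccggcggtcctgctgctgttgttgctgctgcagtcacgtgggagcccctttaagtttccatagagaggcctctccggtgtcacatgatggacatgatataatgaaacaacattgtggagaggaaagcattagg
Usp28, chr9:48985135-48985434, plus strand: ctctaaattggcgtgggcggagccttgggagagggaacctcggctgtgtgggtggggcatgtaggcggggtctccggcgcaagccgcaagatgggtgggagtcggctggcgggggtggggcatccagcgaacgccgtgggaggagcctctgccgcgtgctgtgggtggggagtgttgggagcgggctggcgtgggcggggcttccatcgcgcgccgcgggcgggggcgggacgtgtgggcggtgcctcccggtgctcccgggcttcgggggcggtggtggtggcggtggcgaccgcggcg
Cdkn1a, upstream start, chr17:29090729-29091028, plus strand: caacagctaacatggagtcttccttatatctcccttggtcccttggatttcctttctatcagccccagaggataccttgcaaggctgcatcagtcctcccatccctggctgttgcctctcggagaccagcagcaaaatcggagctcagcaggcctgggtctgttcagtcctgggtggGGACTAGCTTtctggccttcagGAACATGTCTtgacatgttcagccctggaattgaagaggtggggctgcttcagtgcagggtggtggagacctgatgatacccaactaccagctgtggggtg
Ccng1, chr11:40755237-40755536, minus strand: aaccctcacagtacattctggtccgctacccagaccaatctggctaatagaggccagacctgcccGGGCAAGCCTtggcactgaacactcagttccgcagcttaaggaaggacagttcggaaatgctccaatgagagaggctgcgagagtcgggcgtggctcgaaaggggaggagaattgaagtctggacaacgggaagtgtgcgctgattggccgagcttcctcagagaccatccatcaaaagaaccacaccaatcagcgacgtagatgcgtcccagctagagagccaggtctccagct
Mdm2, chr10:117710709-117711008, minus strand: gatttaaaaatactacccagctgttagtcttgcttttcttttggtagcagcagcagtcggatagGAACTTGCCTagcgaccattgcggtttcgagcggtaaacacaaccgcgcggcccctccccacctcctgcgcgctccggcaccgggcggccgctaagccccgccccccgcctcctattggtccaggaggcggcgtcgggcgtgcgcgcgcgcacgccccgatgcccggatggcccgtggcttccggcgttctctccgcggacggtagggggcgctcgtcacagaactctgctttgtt
Sesn1, downstream start, chr10:41887189-41887488, plus strand: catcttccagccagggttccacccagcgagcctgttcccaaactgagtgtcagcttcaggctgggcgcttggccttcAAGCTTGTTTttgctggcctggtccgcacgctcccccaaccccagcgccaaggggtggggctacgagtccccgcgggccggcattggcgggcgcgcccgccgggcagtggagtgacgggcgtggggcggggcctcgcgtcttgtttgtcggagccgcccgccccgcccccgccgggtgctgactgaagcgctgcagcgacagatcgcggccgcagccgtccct

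The upstream Cdkn1a window held 2 exact decamers, GGACTAGCTT and GAACATGTCT, with 12 bases between them. The windows of Ccng1, Mdm2, Trp53 and the downstream start of Sesn1 held 1 each, and those of Lncpint, Usp28, Phlda3, the upstream start of Sesn1 and the downstream start of Cdkn1a held none. Among all 32851 RefSeq windows of the same length, 8.36% held at least 1 exact decamer and 0.0731% held a pair with no more than 13 bases between. A match is a description of the letters, and its absence says nothing about binding outside the window. Usp28 has a window of 74.7% G and C, against 58.7% for Lncpint and a median of 52.7% over all windows.

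The targeted gene Pggt1b stood at log2 intensities of 8.35, 8.38, 8.29 and 8.36 in WT and at 7.89, 7.57, 7.69 and 7.86 in KO, lower in every KO array. It fell by 0.59 ± 0.072 SE on the log2 scale (standard error; limma, Benjamini-Hochberg adjusted p = 0.00141), although the deleted stretch is not stated and the probe set may lie outside it. Among all tested genes 515 rose and 988 fell, so that 34.3% of the 1503 calls were higher. With each array centred on its median that share was 22.5%, over all probe sets 49.2% and at an adjusted p under 0.01 it was 46.2%. KO replicates 1 and 2 had the highest heat-shock level, the mean of Hspa1a and Hspa1b, of all arrays, so results that rest on them are also given without them. In sorted bulk RNA, fewer cells of a type and less RNA per cell cannot be told apart.

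The log2 intensity of Lncpint in WT replicates 1 to 4 was 7.97, 8.00, 7.93 and 8.11, and in KO replicates 1 to 4 it was 9.73, 9.45, 9.56 and 9.47. The genotypes were far apart and the arrays of each lay close together, with no overlap. The mean was 8.00 ± 0.077 in WT and 9.55 ± 0.12 in KO (SD, n = 4 per genotype), a log2 difference, KO minus WT throughout, of 1.55 ± 0.070 SE, or 2.93-fold. Usp28 stood at 8.95, 8.78, 8.79 and 8.70 in WT and at 10.25, 10.32, 9.96 and 10.04 in KO. Again each KO array was above each WT array, with KO replicates 1 and 2 the highest. Its mean was 8.81 ± 0.10 in WT and 10.14 ± 0.17 in KO, a log2 difference of 1.34 ± 0.088 SE, or 2.52-fold. These differences chose the genes and are given as a description, with no test, and nothing is read from the separation of the arrays, which 6.79% of tested genes share in this direction. Ordered by the difference among the 11585 genes tested, Lncpint took place 10 and Usp28 place 12.

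Sesn1, which encodes a sestrin that restrains the growth kinase complex mTORC1 and answers to both p53 and FOXO factors, was the single member among the 7 measured p53 targets that changed. It stood at log2 intensities of 10.07, 9.73, 10.02 and 9.85 in WT and at 10.61, 10.36, 10.27 and 10.37 in KO. The lowest KO array, 10.27, was above the highest WT array, 10.07, and KO replicate 1 was above the rest of its group. Sesn1 rose 1.40-fold, a log2 difference of 0.49 ± 0.092 SE (limma, Benjamini-Hochberg adjusted p = 0.0102). With 4.45% of all tested genes called higher in KO, 8.53% called lower and 13.0% called in either direction, 1 call among these 7 targets is near the background. Their median log2 difference was 0.06, against -0.03 over all tested genes. The call of Sesn1 ended without KO replicates 1 and 2 together (log2 0.40, adjusted p = 0.0922) and without WT replicates 2 and 3 together (log2 0.44, adjusted p = 0.0752).

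The members that define the p53 feedback loop and arrest response did not pass the test. Mdm2 stood at 9.47, 9.49, 9.32 and 9.41 in WT and at 9.58, 9.30, 9.55 and 9.35 in KO. The KO arrays lay on both sides of the WT mean. The log2 difference of Mdm2 was 0.02, with a 95% interval from -0.14 to 0.19 (adjusted p = 0.865), and its sign turned without WT replicate 3 or KO replicate 1 or 3 and with each array centred on its median (-0.02 to 0.07 over all settings). Cdkn1a, the gene of the CDK inhibitor p21, stood at 5.74, 5.67, 5.78 and 5.81 in WT and at 5.75, 5.73, 5.92 and 5.83 in KO. All of these values are close to the intensity floor for testing, a log2 of 5.56, which is the median of all probe set means, where array signals compress differences. Cdkn1a differed by 0.06, with an interval from -0.07 to 0.19 (adjusted p = 0.567). Ccng1, an atypical cyclin that binds the phosphatase PP2A, stood at 11.17, 11.17, 11.21 and 11.28 in WT and at 11.34, 11.30, 11.21 and 11.40 in KO. KO replicate 3 lay inside the WT range. Ccng1 differed by 0.10, with an interval from -0.02 to 0.23 (adjusted p = 0.240).

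The remaining members likewise missed the threshold, and 2 of them, Zmat3 and Phlda3, had a lower mean in KO. Zmat3, an RNA-binding zinc finger protein that alters splicing downstream of p53, stood at 7.83, 8.10, 7.87 and 7.87 in WT and at 7.66, 7.77, 7.81 and 7.81 in KO. All KO arrays were below all WT arrays, with 7.81 against 7.83 at the nearest, a separation found in this direction for 13.5% of tested genes. Its log2 difference was -0.16 ± 0.069 SE, with a 95% interval from -0.31 to -0.0018 before any adjustment (adjusted p = 0.167). A second probe set that matches Zmat3 and a Rik gene was set aside by the rule and stood at a mean of 5.93 in WT and 5.73 in KO. Trp53inp1, a nuclear stress protein that promotes p53 phosphorylation and autophagy, stood at 10.94, 11.01, 11.07 and 11.12 in WT and at 11.21, 11.09, 11.02 and 11.07 in KO, a log2 difference of 0.06 (adjusted p = 0.536). Phlda3, an inhibitor of AKT at the membrane, stood at 6.47, 6.11, 6.44 and 6.34 in WT and at 6.17, 6.25, 6.26 and 6.15 in KO, a log2 difference of -0.13 (adjusted p = 0.308). The genotypes overlapped for both. Sesn1 and Zmat3 were thus the 2 of these 7 targets whose genotypes did not overlap, against 20.3% of tested genes. Over the 6 members not called, the 95% intervals ran from -0.31 to 0.23, that is from 1.24-fold lower to 1.17-fold higher. Lncpint and Usp28 were chosen for their large differences, so no comparison with them is drawn.

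**Figure D1:**
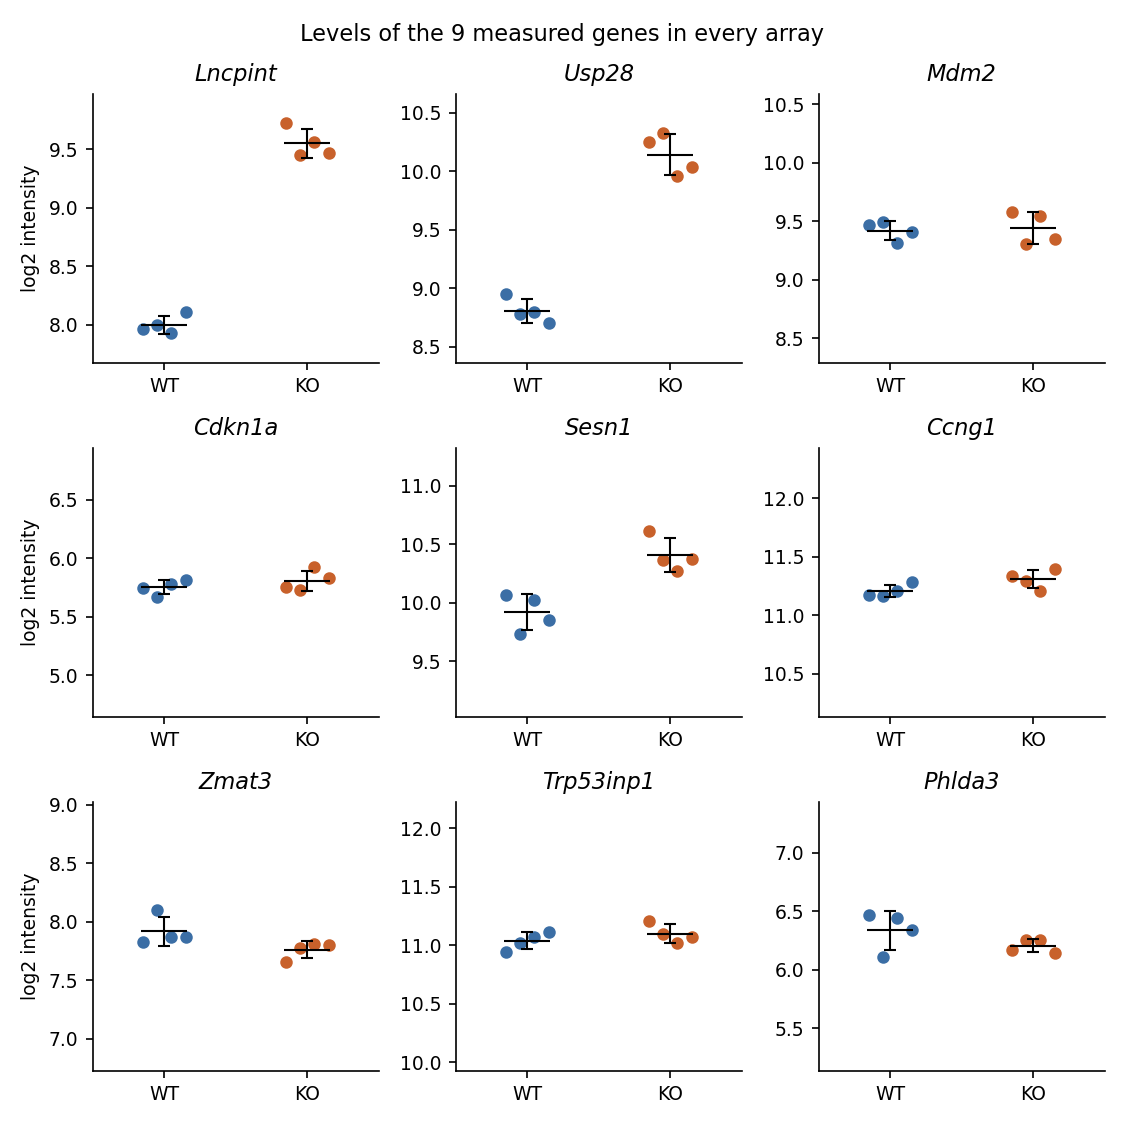
Log2 intensity (vertical axis, the same span in every panel) of the 9 measured genes in the 4 WT arrays (blue) and the 4 KO arrays (orange), in order of replicate number, with the mean and SD in black. Lncpint, Usp28 and Sesn1 have all KO arrays above all WT arrays, while the other panels differ by at most 0.16 between the means.

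The position of the pair in the genome was compared with the levels of nearby genes, using only the RefSeq order of genes. On either side of Lncpint the nearest annotated genes are Mir29b-1 and the lncRNA 2210408F21Rik, both below the intensity floor, with means of 2.72 and 3.74 in WT and 2.60 and 3.75 in KO. The nearest tested genes are Klf14 and Mkln1. Mkln1, which encodes a subunit of a ubiquitin ligase complex, stood at a log2 intensity of 9.68 ± 0.11 in WT and 9.70 ± 0.025 in KO, a difference of 0.03 with a 95% interval from -0.11 to 0.16 (adjusted p = 0.822). Klf14, a Krüppel-like factor, differed by -0.03 (adjusted p = 0.790). In RefSeq order 3 annotated genes lie between Lncpint and Klf14, and 4 between Lncpint and Mkln1.

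Usp28 lies next to Gm51673 and Cldn25-ps, which have no named probe set here. Zw10, a kinetochore protein gene and the nearest tested gene on one side, stood at 8.68 ± 0.13 in WT and 8.65 ± 0.075 in KO, a difference of -0.02 with an interval from -0.19 to 0.14 (adjusted p = 0.868). On the other side the nearest tested gene, with 4 annotated genes between, is Zbtb16, the transcription factor of innate-like T cells. It stood at 6.36 ± 0.48 in WT and 5.67 ± 0.094 in KO. Zbtb16 fell by 0.69 on the log2 scale (adjusted p = 0.0453), the opposite direction to Usp28. The call of Zbtb16 ended without WT replicate 2 or any 1 of the KO arrays (highest adjusted p = 0.106).

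**Figure D2:**
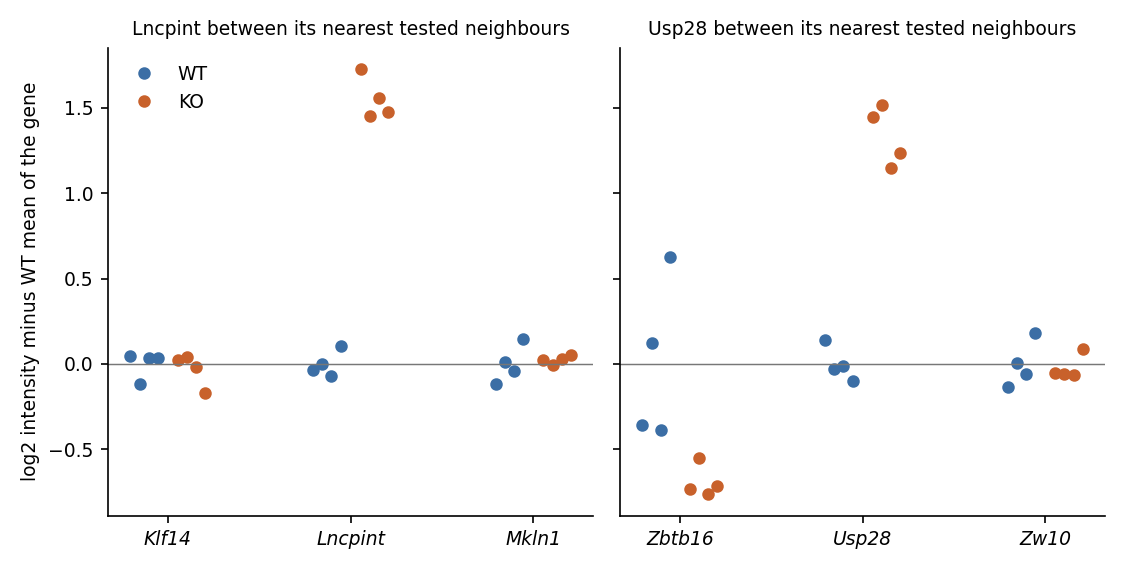
Log2 intensity minus the WT mean of each gene (vertical axis) for Lncpint and Usp28 and, on either side of them, the nearest tested genes in RefSeq order, with 1 point per array, WT in blue and KO in orange. Lncpint and Usp28 are shifted up in every KO array, Klf14, Mkln1 and Zw10 stay around 0, and Zbtb16 is lower in KO and spread widely in WT.

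Genes with profiles most like those of Lncpint and Usp28 were found from the root-mean-square distance between mean-centred log2 values over the 8 arrays, a measure that mostly picks genes with a genotype difference of similar size. Nearest to Lncpint were Sidt1, a transmembrane protein of the SID1 family, at a distance of 0.12, Clcf1, a cytokine that signals through gp130, at 0.14, the small GTPase gene Rhob at 0.15, the phosphatase gene Cdc25b at 0.18 and the pyrophosphate transporter gene Ank at 0.19. Usp28 was the next, place 6 of 10645, at 0.19, against a median distance of 0.80. Both genes were chosen for a large rise, which largely sets their closeness, and nothing is read from it. Nearest to Usp28 were Prxl2c at 0.12, the Krüppel-like factor gene Klf6 at 0.16, Ank at 0.17, Clcf1 at 0.18 and Lncpint at 0.19. All 7 of these other genes stood between 2.08-fold and 3.18-fold higher in KO with no overlap of arrays, which the choice by likeness fixes. No other measured member was among them.

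**Figure D3:**
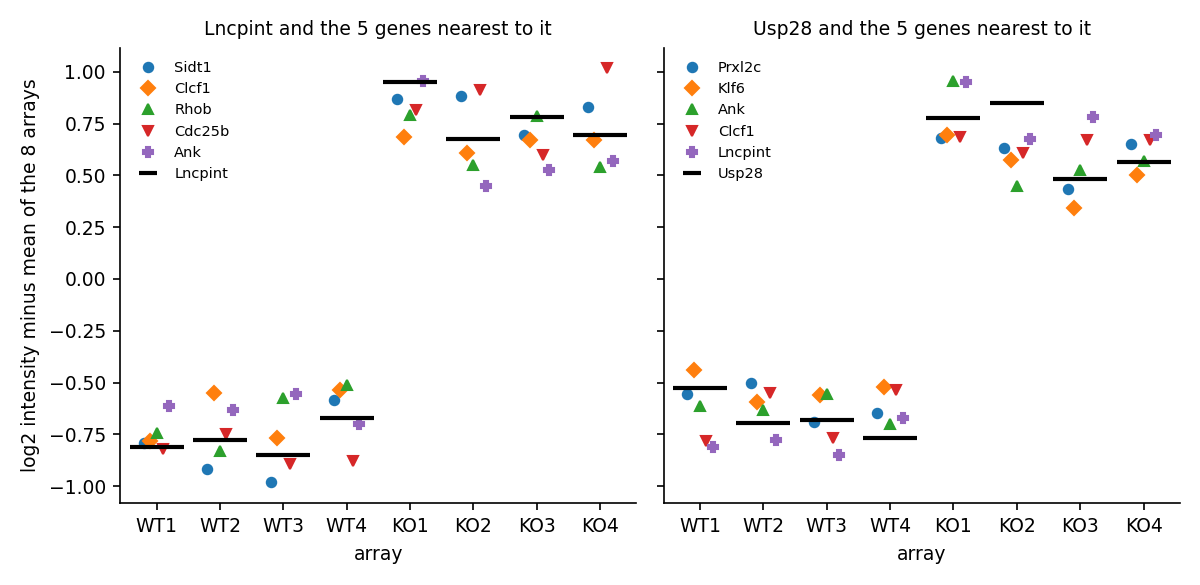
Log2 intensity minus the mean of the 8 arrays (vertical axis) by array (horizontal axis) for Lncpint (left, black bars) and Usp28 (right, black bars) with the 5 genes nearest to each as coloured symbols. The symbols of every array follow the black bars from WT to KO, and the arrays within a genotype are in no order.

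The wider p53 response outside the 10 members was described from 5 lists of targets. Of 51 genes listed, 45 had a named probe set and 38 were tested. Among them 4 rose and 3 fell, or 18.4%, against 13.0% of all tested genes (4.45% higher and 8.53% lower), and their median log2 difference was -0.05 against -0.03 over all tested genes. The total of 7 was 3 without KO replicate 4 and 4 without KO replicate 1 or 2. With any 1 array left out, 3 or 4 rises and 0 to 2 falls remained. The total was 3, all of them rises, in a fit with the heat-shock level added. It was 1, a rise, without KO replicates 1 and 2 together or without WT replicates 2 and 3 together.

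Of 9 tested apoptosis targets 2 rose and 1 fell, with a median log2 difference of -0.06. Over all tested genes 4.45% rose and 8.53% fell, so the single fall is near the background. Bbc3, the gene of the death-promoting BH3-only protein PUMA, stood at 7.42, 7.08, 7.16 and 7.12 in WT and at 8.27, 8.10, 7.62 and 7.65 in KO. KO replicates 1 and 2 were the highest, and these arrays were also the highest in heat-shock genes. Bbc3 rose by 0.72 ± 0.15 SE on the log2 scale (adjusted p = 0.0140), and without those arrays its difference was 0.44 (adjusted p = 0.0760). The call of Bbc3 was also lost without WT replicates 2 and 3 together. It held in the fit with the heat-shock level added, and whichever 1 array was left out (highest adjusted p = 0.0410 on leaving out 1 array). Pmaip1, the gene of the pro-apoptotic NOXA, rose by 0.33 (adjusted p = 0.0233), a call lost without KO replicate 1, 3 or 4 (highest adjusted p = 0.0564). The Pmaip1 call was also lost with the heat-shock level added. Its WT arrays, at 5.55 to 5.87, lay close to the intensity floor of 5.56. The death receptor gene Tnfrsf10b fell by 0.40 (adjusted p = 0.0273), which was lost without WT replicates 2, 3 or 4 and also without KO replicates 2 or 4 (highest adjusted p = 0.0686). Without KO replicate 4 the list had 1 call, against 3.

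Rrm2b, which encodes the p53-inducible subunit of ribonucleotide reductase that supplies nucleotides for DNA repair outside S phase, was the steadiest of the wider targets. It stood at 7.58, 7.72, 7.67 and 7.45 in WT and at 8.28, 8.19, 8.07 and 8.02 in KO, without overlap. Rrm2b rose 1.45-fold (log2 0.54 ± 0.077 SE, adjusted p = 0.00285). It kept its call in all 20 alternative settings, among them the removal of any 1 array and of either pair of arrays. Rrm2b was the 1 call among 6 repair genes, whose median was -0.09, and with 13.0% of all tested genes called that count is near the background. Of the others, Pcna, the replication clamp, differed by -0.14 (adjusted p = 0.116).

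Neat1, a nuclear RNA that builds paraspeckles and a p53 target, was the 1 rise among 8 tested noncoding and other targets (list median -0.05). It stood at 9.78, 9.69, 9.30 and 9.50 in WT and at 10.03, 9.94, 10.09 and 10.21 in KO, with no overlap. It rose by 0.50 ± 0.10 SE (adjusted p = 0.0144) and kept its call whichever 1 array was left out (highest adjusted p = 0.0385). The p53-induced lincRNA Trp53cor1 stood at -0.07 (adjusted p = 0.677) and the lncRNA Pvt1 at 0.05 (adjusted p = 0.711). Trp53cor1 and Pvt1 were picked once their values were known, as the other long noncoding RNAs of the list. The tetraspanin gene Cd82 fell by 0.18 (adjusted p = 0.0480), a call lost on removal of any 1 array (highest adjusted p = 0.115). Of 9 metabolic and redox targets (median -0.03) 1 fell, the lipase gene Abhd4, by 0.31 (adjusted p = 0.0237), a call lost without KO replicate 1, 2 or 4. Over all tested genes 4.45% rose and 8.53% fell, so single calls in lists of this size are near the background. Tigar, which diverts sugar from glycolysis, differed by -0.10 (adjusted p = 0.196). None of 6 arrest targets (median 0.05) passed limma's test, the lowest p being those of the phosphatase gene Ptp4a3, at 0.17 (adjusted p = 0.117), and the mitotic gene Gtse1, at -0.25 (adjusted p = 0.127).

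Of 16 tested kinases, ligases, deubiquitinases and cofactors that set the level of p53, 3 fell and 0 rose, with a median of -0.01. Calls made up 13.0% of all tested genes, most of them falls (8.53% of tested genes), and nothing particular to these regulators is read from the count. Chek1, the S phase checkpoint kinase, fell 1.65-fold (log2 -0.72 ± 0.095 SE, adjusted p = 0.00195). Trp53bp1, which encodes the USP28 partner 53BP1, stood at 9.34, 9.40, 9.23 and 9.45 in WT and at 9.09, 9.13, 9.17 and 9.17 in KO, lower in every KO array and opposite to Usp28. Trp53bp1 fell by 0.21 ± 0.057 SE (adjusted p = 0.0364), and its call ended without any single array other than WT replicate 3 (highest adjusted p = 0.0987). Hipk2, a kinase that phosphorylates p53, fell by 0.21 (adjusted p = 0.0296), which was lost without WT replicates 2, 3 or 4 and also without KO replicates 1 or 3 (highest adjusted p = 0.0735). Mdm4, the partner of MDM2, stood at 0.16 (adjusted p = 0.0867) and Atm at 0.01 (adjusted p = 0.966), both picked once their values were known. The 3 falls became 1 without WT replicate 2, WT replicate 4, KO replicate 1 or KO replicate 3.

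Of 9 tested relatives of the members, 1 rose and 3 fell, with a median of -0.09, where 4.45% of all tested genes rose and 8.53% fell. Cdkn1b, whose product p27 is the sister inhibitor of p21, rose by 0.28 ± 0.054 SE (adjusted p = 0.0104), with WT arrays between 10.09 and 10.21 and KO arrays between 10.38 and 10.55. Sesn3, a sestrin known as a FOXO target, fell by 0.19 ± 0.048 SE (adjusted p = 0.0317), the opposite direction to Sesn1, and Sesn2 stood at -0.26 (adjusted p = 0.260). Trp53inp2, the paralogue of Trp53inp1, fell by 0.32 (adjusted p = 0.0320) and Zmat2 by 0.25 (adjusted p = 0.0351). Usp25, the closest paralogue of Usp28, differed by 0.02 (adjusted p = 0.895). Sesn2 and Usp25 were picked once their values were known. The 4 calls became 1 without WT replicate 2, WT replicate 3, KO replicate 3 or KO replicate 4, and 2 without WT replicate 4 or KO replicate 2. Cdkn1b kept its call without any 1 array, and each of the 3 falls lost it without any 1 of the arrays that left a single call.

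The reported substrates and partners of USP28 gave 1 rise and 1 fall among 8 tested, with a median of -0.07, and with 4.45% of all tested genes higher and 8.53% lower this is near the background. USP28 acts on protein, which these arrays do not measure. Jun, an AP-1 factor, stood at 8.52, 9.44, 8.96 and 9.14 in WT and at 10.16, 10.02, 9.32 and 10.20 in KO, with KO replicate 3 inside the WT range. It rose by 0.91 ± 0.22 SE (adjusted p = 0.0288), a call lost without WT replicates 1 or 3, without KO replicates 1, 2 or 4, and lost with the heat-shock covariate (0.72, adjusted p = 0.0573). Clspn, the checkpoint adaptor of CHEK1, fell by 0.43 (adjusted p = 0.0104). The KO arrays of Clspn, at 5.392 to 5.599, lay close to the intensity floor of 5.56, most of them below it. Array signals compress differences there, so the size of this fall is uncertain. Myc differed by 0.08 (adjusted p = 0.613), a gene picked once its value was known.

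Of 10 tested subunits of PRC2, the complex reported to bind Lncpint, 4 fell and 1 rose, where 8.53% of all tested genes fell and 4.45% rose. Their median log2 difference was -0.13 against -0.03 over all tested genes. Ezh2, a catalytic subunit, fell by 0.34 ± 0.051 SE (adjusted p = 0.00379), from 10.37 ± 0.028 in WT to 10.03 ± 0.074 in KO. Ezh1, the alternative catalytic subunit of resting cells, rose by 0.24 ± 0.055 SE (adjusted p = 0.0233). Mtf2, Jarid2 and Rbbp4, accessory and histone-binding subunits, fell by 0.23, 0.20 and 0.20 (adjusted p = 0.0334, 0.0296 and 0.0227). Suz12 and Eed, the core scaffold subunits, stood at -0.13 and 0.04 (adjusted p = 0.230 and 0.750), picked once their values were known. The 5 calls became 1 without KO replicate 1, 2 without WT replicate 2, WT replicate 3, KO replicate 2 or KO replicate 3, and 3 without WT replicate 4 or KO replicate 4. Rbbp4 has more than 1 probe set, and their mean gave an adjusted p of 0.257. Among the called genes of all 9 lists, Chek1 and Rrm2b alone stayed called both without KO replicates 1 and 2 together and without WT replicates 2 and 3 together.

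**Figure D4:**
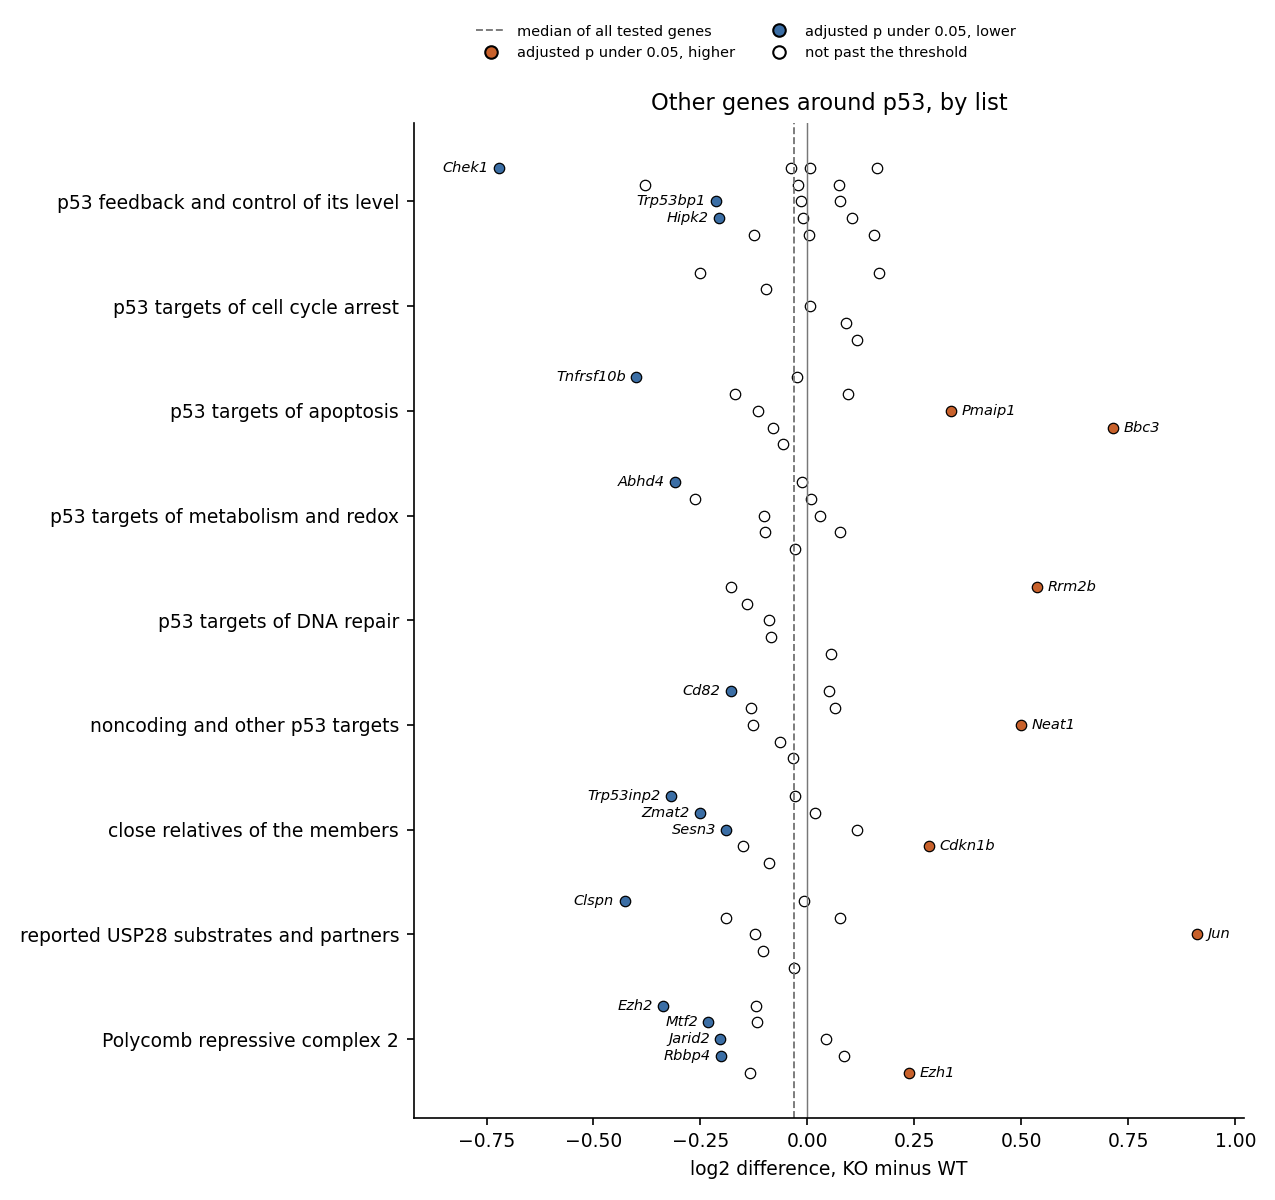
Log2 difference, KO minus WT (horizontal axis), of every tested gene in the 9 lists around p53 (rows), with 1 circle per gene, filled orange for genes called higher, blue for genes called lower and white for genes past no threshold. Most circles sit near the dashed median of all tested genes, and Bbc3, Rrm2b and Neat1 are the targets furthest to the right.

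Markers of cell types and states were compared between the same genotypes. Of 8 markers of CD4 single-positive cells all were detected above the floor and 1 fell. Over all tested genes 4.45% rose and 8.53% fell, so 1 fall among so few markers is near the background. Of 7 tested mature single-positive markers 5 rose, namely Klf2, S1pr1, Itgb7, Cd55 and Gimap3, while Il7r and Ccr7 were not called. The summed level of all 7 was between 13.96 and 14.10 log2 in WT and between 14.20 and 14.26 in KO. Of 6 tested proliferation markers 4 fell, with sums between 12.10 and 12.42 in WT and between 11.87 and 12.11 in KO. Those 5 rises became 3 without WT replicate 3 or KO replicate 2, while those 4 falls became 1 without WT replicate 2, WT replicate 3 or KO replicate 1. The falls became 2 without WT replicate 1, KO replicate 2 or KO replicate 3, and 5 without WT replicate 4 or KO replicate 4. Chek1, Clspn, Ezh2 and Pcna are genes of dividing cells too. Of 6 tested double-positive markers 1 fell, and the sums were 11.24 to 11.55 in WT against 10.91 to 11.25 in KO. The part of maturity, cell cycle and double-positive cells in the differences above was not tested. B cell, myeloid and stromal lists had 1 of 5, 3 of 7 and 3 of 6 measured markers above the floor, none of them called. Those above it were Cd79b, Lyz2, Itgam, Cd68, Krt8, Col1a1 and Col3a1, with WT means from 5.86 (Lyz2) to 7.41 (Cd68). Cd79a, Ms4a1, Itgax, Csf1r, Pdgfra and Foxn1 were among those below it. Whether such cells were present was not tested. The erythroid markers were not analysed here.

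The mean of the heat-shock genes Hspa1a and Hspa1b varied within both genotypes, over 5.27 to 8.58 log2 in WT and 4.57 to 10.34 in KO. KO replicate 3 had the lowest heat-shock level of all arrays and stood at 9.56 for Lncpint and 9.96 for Usp28, the lowest KO value of Usp28. KO replicates 1 and 2, with the highest heat-shock level, stood at 9.73 and 9.45 for Lncpint and at 10.25 and 10.32 for Usp28. In the fit that adds this level, the log2 difference was 1.55 for Lncpint, 1.28 for Usp28 and 0.43 for Sesn1 (adjusted p = 0.0317 for Sesn1). Without KO replicates 1 and 2 the differences were 1.52 for Lncpint and 1.19 for Usp28. The part of the heat-shock level in the other results was not tested beyond these fits.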

How the data were processed

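RNA of sorted CD4 single-positive thymocytes was converted to biotinylated cDNA and measured on 8 Mouse Gene 2.0 ST arrays, per the labels. The deposited table gives log2 intensities for 41345 probe sets, to which the authors applied RMA. The submitters' processing notes name Affymetrix Expression Console 1.1 and no build. Array medians were 5.52 to 5.59, and precision is limited by the number of arrays. Groups follow the genotype label, and replicate numbers follow the order of deposit.

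Probe sets with 1 symbol in a platform annotation, which can be old, were kept (23521), and each gene took its brightest one over the 8 arrays. Genes with a mean of at least 5.56 were tested (11585), and 10595 dimmer genes were set aside. The test was limma 3.58.1 (R 4.3.3, two-sided, genotype alone), with Benjamini-Hochberg adjustment over all tested genes and calls at an adjusted p under 0.05. All printed adjusted p-values are limma's. The code was tested on simulated data.

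The members, lists, tests and alternatives were chosen with earlier results of these data known. Named genes are the members, Pggt1b, up to 6 called genes of each list by adjusted p, filled to at least 2 by lowest p, the annotated neighbours of Lncpint and Usp28, and the 5 genes nearest in profile to each, without Gm and Rik names, antigen receptor segments and small RNAs. The nearest tested neighbours were added after the values were seen. RefSeq GRCm38.p6 supplied gene order and promoters.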

Additional observations from a re-analysis of the deposited data

Results flagged for a closer look

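In 92 groups of 4 arrays, 1 array stood apart from the other 3 in 6 cases, where chance gives about 1 in 20. They were Hipk2 in KO replicate 1 (8.687), Pmaip1 in WT replicate 4 (5.547), Abhd4 in WT replicate 2 (7.141), Cdkn1b in KO replicate 1 (10.548), Klf14 in WT replicate 2 (6.184) and Zw10 in KO replicate 4 (8.765), all log2 intensities. None of the 9 measured members was among them.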

How the results depend on the processing

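Differences of 46 named genes were recomputed under 20 alternatives. Of 917 values 733 counted as unchanged, 183 lost the call and 1 gained it. Unchanged means the same side of the threshold, except for Lncpint and Usp28, which have no test. For them it means a shift smaller than the larger of the WT and KO SD. The sign turned in 9 values of 4 genes that were not called, Mdm2, Klf14, Mkln1 and Zw10, and in 0 values of called genes. Lncpint ranged from 1.49 to 1.59 and Usp28 from 1.19 to 1.40 on the log2 scale. Sesn1 ranged from 0.40 to 0.54 and, besides the settings already given, missed an adjusted p under 0.01. The 1503 changed genes became 920 with no intensity filter, 996 over all probe sets, 446 at an adjusted p under 0.01, 874 with the heat-shock covariate, 258 without KO replicates 1 and 2 together, 295 without WT replicates 2 and 3 together, and 813 to 1441 when 1 array was left out. The 7 changed genes of the wider p53 lists became 3 over all probe sets, 1 at an adjusted p under 0.01, 3 with the heat-shock covariate, 1 without either pair of arrays, and 3 to 6 when 1 array was left out. The cause was not tested beyond what fewer arrays, more tested probe sets or a stricter threshold set by construction. No paired analysis was possible because the labels give no replicate numbers. Background correction could not be varied, since scanner values were not used here.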
